A study of Mus musculus with 12 samples.

Results

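The regions described are changed ATAC-seq peaks in later introns, that is, peaks whose HOMER annotation places them in intron 2 or beyond of a transcript. They were taken from the authors' table of peaks that differed between genotypes by keeping every peak annotated to an intron and dropping those in intron 1. This left 6837 of the 23932 listed peaks (28.6%), and 63.3% of all 10808 intronic peaks. Every one was 401 bp wide. The study compared CD8+ progenitor T cells with and without deletion of the UTX gene, in order to ask how this chromatin regulator shapes the cells in autoimmune diabetes. ATAC-seq, which reads open chromatin from where a transposase inserts adapters, and bulk RNA-seq were each done on 3 libraries per genotype. All cells came from the pancreatic lymph nodes of *NOD-TCR 8.3* mice, nonobese diabetic animals whose T cells bear a transgenic receptor against the β cell antigen IGRP. *NOD-TCR 8.3 WT* mice served as controls for *NOD-TCR 8.3 UTX TCD* mice, in which floxed *Kdm6a* alleles (*UTX fl/fl*) were deleted by *Lck-Cre*.

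*Lck-Cre* acts in developing T cells, so the deletion is not limited to CD8+ cells. *Kdm6a* RNA itself was counted at 28365, 28949 and 29172 in WT libraries and at 24158, 24792 and 24579 in those of UTX TCD mice. All UTX TCD values were lower, by a small margin, and counts over the whole gene do not show how much of it had been deleted. The paper describes littermate controls for the line without the transgenic receptor as *UTX fl/fl* without Cre. Ages of the mice behind these libraries are not given. The sample labels describe the sorted gate by Ly108 and the absence of CXCR6, whereas the paper gives Ly108 and the absence of CD39. The floxed alleles and Cre had been crossed from B6 onto NOD for more than 10 generations. All groups share the NOD background, the receptor transgene, the tissue and the sort.

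UTX, the product of the X-linked gene *Kdm6a*, removes methyl groups from H3K27 and is also a subunit of the KMT2C and KMT2D complexes that work at enhancers. Introns behind the first one often hold enhancers that lie far from any promoter, of the gene itself or of a neighbor. Progenitor CD8+ T cells are stem-like cells that renew themselves and give rise to effector cells, and *Lef1* and *Foxp1* encode transcription factors known from such resting or early states.

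Depth of the RNA-seq, in reads assigned to genes, was 146456724, 144503203 and 193568919 for the WT libraries and 61512402, 175462433 and 187275082 for those of UTX TCD mice. The shallowest was UTX TCD replicate 1. Expression is given as normalized counts, the authors' counts per gene divided by a size factor per library, and log2 fold changes are UTX TCD over WT on log2(normalized count + 1). A gene was called at an adjusted p under 0.05 from limma and an absolute log2 fold change over 0.5. Of the 14459 genes tested, calls of higher RNA in UTX TCD mice numbered 1518 (10.5%) and calls of lower RNA 1020 (7.05%), together 17.6%. These p-values measure the spread between mice, and genes are not independent replicates. Strand was not stated for the counting, so genes that overlap on opposite strands are uncertain.

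Markers matched the sorted cell type. The 6 CD8 T markers summed to 876928, 823383 and 844422 normalized counts in WT and 863003, 832010.1 and 763298 in UTX TCD libraries, led by *Cd8a*, and the limma test called 0 of them. B cell markers were lower, at 2951, 2437 and 2800.4 in WT and 1221, 1082 and 1000.3 in UTX TCD libraries. *Cd79b*, the most abundant of them, was called lower and *Ms4a1* higher, while *Pax5*, a defining B cell factor, stayed at 11.1 or below in every library. CD4 markers summed to between 344 and 475 normalized counts, and *Cd4* and *Zbtb7b* were called lower. Both plasma cell markers, *Jchain* and *Sdc1*, were called higher, with sums between 16.0 and 40.5 in WT libraries and between 53.7 and 108 in those of UTX TCD mice. Myeloid markers reached 123 at most, dendritic markers 246, NK markers 55.3 and erythroid markers 146, and the only call among them was *Csf1r*, lower. *Trdc*, at 57480.1 on average, and *Pecam1*, at 33204, were abundant in both genotypes, while *Tcrg-C1* averaged 122 in WT and 117 in UTX TCD cells. The part of these other markers in the results was not tested.

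Later-intron peaks gained accessibility more often than they lost it in UTX TCD cells, as did the list as a whole. Of the 6837 peaks, 4409 were more accessible and 2428 less accessible, so 64.5% gained, beside 68.8% of all 23932 listed peaks. Promoter peaks were far more one-sided, with gains at 85.3% of 2621. The peaks of first introns (67.5% of 3971) and intergenic peaks (65.2% of 8534) lay close to the later introns. Losses in later introns were larger than gains, with a median difference of -0.80 against 0.69 on the log2 scale.

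Accessibility here is the authors' concentration of a peak, the log2 of the mean normalized reads over the 3 libraries of a genotype, and a difference is the UTX TCD value minus the WT value, with no replicate spread. The median later-intron peak stood at 7.70 in UTX TCD and 7.59 in WT cells. Differences had a median of 0.47, a middle range from -0.59 to 0.80 and extremes of -4.82 and 5.52. At an absolute difference over 0.5 there were 3235 gains and 1939 losses, and over 1 there were 1129 gains and 849 losses, or 57.1% gains. Peaks that gained had a median of 8.04 in UTX TCD against 7.25 in WT cells, and peaks that lost had a UTX TCD median of 7.12. Because the list holds only peaks the authors had selected as changed, the shares describe that list. Direction also depends on where 0 is set: measured from the median difference of all listed peaks, 48.0% of later-intron peaks lay on the gaining side.

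Just inside the annotation limit, the 1805 peaks of intron 2 gained in 63.5% of cases, with a median difference of 0.45. Just outside it, the first-intron peaks had a median difference of 0.44. From intron 2 onward the share of gains moved little, at 61.7% in intron 3 (1064 peaks), 68.0% in intron 4 (674), 66.6% in introns 5 to 9 (1684), 64.8% in introns 10 to 19 (1172) and 61.4% in intron 20 or later (438). The share of peaks past 0.5 was 72.2% in intron 2 and 80.8% in intron 20 or later. In the last intron of a transcript, 827 peaks gained in 63.6%. The median peak lay in intron 4, and the deepest was in intron 129 of 156 of *Neb*, the gene of the muscle protein nebulin. Of the later-intron peaks, 378 (5.53%) also fell in the first intron of another RefSeq transcript.

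By chromosome the gaining share ran from 53.8% of 292 peaks on chromosome 15 to 73.7% of 247 on chromosome 19. Chromosome X, which carries *Kdm6a*, held 89 later-intron peaks and 66.3% of them gained. Chromosome 5, with 56.5%, and chromosome 14, with 56.8%, were also at the low end.

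With distance to the nearest transcription start site the differences varied more in size than in direction. The median later-intron peak lay 27781 bp from that site, the middle range ran from 12324 to 58699 bp, and the farthest was 606325 bp away, inside *Wwox*. Peaks under 10 kb away gained in 67.9% of 1338 cases. The share was 64.3% of 3433 peaks at 10 to 50 kb, 60.8% of 1259 at 50 to 100 kb and 65.3% of 807 beyond 100 kb, so the direction did not shift steadily.

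Peaks past 0.5, in contrast, rose in share with each step outward, from 67.2% to 76.1%, 79.3% and 82.5%. Intergenic peaks rose likewise, from 71.7% to 76.8%, 79.7% and 81.4%, and first-intron peaks stood at 66.8%, 71.2%, 70.4% and 77.8%. Concentrations of later-intron peaks fell along the same steps, from a median of 7.91 in WT cells under 10 kb to 7.41 beyond 100 kb. The first-intron peaks gained in 73.5% of cases under 10 kb, in 61.4% at 10 to 50 kb, in 60.5% at 50 to 100 kb and in 71.4% of 63 beyond 100 kb. Intergenic peaks went from 68.2% gains under 10 kb to 59.6% beyond 100 kb. Of the later-intron peaks, 1665 (24.4%) lay upstream of the nearest start site.

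A later intron often belongs to a gene other than the nearest one. RefSeq transcripts gave a host gene, the gene whose intron holds the peak, for 6783 peaks, and for 6693 of them the intron number was the same as in the annotation. The host differed from the nearest gene for 2482 peaks (36.6%). Peaks whose host was also the nearest gene gained in 67.3% of 4301 cases, and peaks inside another gene in 59.4%. In all, the peaks named 3908 nearest genes and lay in 3569 host genes. At the *Maf* locus, for example, all 8 peaks assigned to this effector transcription factor sat in intron 8 of *Wwox*, between 474325 and 596232 bp away.

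Several transcription factor genes of the progenitor state held long runs of gained peaks in their later introns. *Foxp1*, a factor of T cell quiescence, *Lef1* and *Satb1* each had only gains, and none of these genes was called. *Inpp4b*, a lipid phosphatase gene, combined 32 gains in 33 peaks with a call of higher RNA. *Runx1*, a core factor of T cells, had 16 gains and 2 losses.

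*Foxp1* (chromosome 6, 98925342 to 99522746, GRCm38) hosted 43 later-intron peaks, the most of any gene, from intron 2 to intron 17. All 43 gained, by 0.36 to 2.48, and 35 passed 0.5. The nearest-gene rule credits 15 of them to *Mir12201*, a microRNA gene inside *Foxp1*. The strongest sat at 99191848 to 99192248 in intron 2, at 10.07 in UTX TCD against 7.59 in WT cells. Around it, 12 peaks past 0.5 between 99164738 and 99220879 formed the run with the most peaks and a mean difference of 1.10. Normalized counts of *Foxp1* were 58507, 62235 and 57555 in WT and 75741, 75129.8 and 73880 in UTX TCD libraries. Every UTX TCD library was above every WT library. The log2 fold change of 0.33 (SE 0.04, limma adjusted p = 0.000417) stayed under the limit for a call.

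*Inpp4b* (chromosome 8, 81342266 to 82134312) hosted 33 peaks from intron 2 to intron 23, of which 28 gained past 0.5. The 1 loss, at 81806762 to 81807162, was -0.47. Its last 5 peaks, in introns 7 to 23, carry the name of *Il15*, the nearest gene, although they lie inside *Inpp4b*. Counts were 28648, 28864 and 27199 in WT and 49889, 47454 and 42795 in UTX TCD libraries. The groups did not overlap, and *Inpp4b* rose by a log2 fold change of 0.72 (SE 0.06, limma adjusted p = 2.6e-05). In bulk RNA, fewer cells of a type and less RNA per cell cannot be told apart.

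*Lef1* (chromosome 3, 131110297 to 131224357), which encodes a partner of β-catenin, had 27 later-intron peaks and 13 passed 0.5. They were already wide open, with a mean of 9.77 in WT and 10.28 in UTX TCD cells, and their gains of 0.25 to 1.06 were modest. The 6 at the 3′ end are nearest to *Hadh*. *Lef1* counts were 105496, 109084 and 95133 in WT and 147801, 135057 and 120504 in UTX TCD libraries, apart but with a wide spread. At 0.38 (SE 0.08, limma adjusted p = 0.00517) the log2 fold change fell short of a call.

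*Satb1* (chromosome 17, 51736187 to 51833290), a chromatin organizer, gained at all 16 of its later-intron peaks, by 0.34 to 1.18. Counts in WT were 119973, 123937 and 122832, and in UTX TCD libraries 126486, 129479 and 121901. Those groups overlapped, and the log2 fold change was 0.04 (SE 0.04). Here 13 peaks past 0.5 stood beside RNA that did not pass the test (limma adjusted p = 0.484).

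*Runx1* (chromosome 16, 92601466 to 92826074) had 15 peaks in intron 2, all more accessible, and 3 in intron 3, of which those at 92654364 and 92661759 lost, by -0.91 and -1.02. Counts were 9299.7, 7792 and 8648 in WT and 12171, 11284 and 11499 in UTX TCD libraries, without overlap. The log2 fold change of 0.44 (SE 0.07, limma adjusted p = 0.000772) was under the limit, and it ran from 0.38 to 0.50 with 1 library left out. It passed the limit without WT replicate 1 and, at 0.51, with all libraries scaled to the same sum. *Cd226*, an activating receptor gene, was the nearest gene of 12 peaks with 11 gains, but only 6 lay inside it. Intron 7 of *Dok6*, downstream, held 5 more, up to 204071 bp away. Its log2 fold change was 0.19 (SE 0.04) and not called.

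Beyond the named genes, other hosts of many gained peaks were looked up after their values were seen. *Palld*, which encodes an actin-binding protein, had 10 gains in 10 peaks with a mean difference of 1.26, and its counts of 76.3, 104 and 96.9 in WT and 328, 315 and 255 in UTX TCD libraries did not overlap. It was called higher at 1.69 (SE 0.18). *Nav2* (11 of 11 gained) was called higher by the same 1.69 (SE 0.06), and *Lpp* and *Trerf1* at 0.61 and 0.57. In contrast, *Arid1b*, *Cdkal1* and *Ddx6* gained at every later-intron peak (10, 8 and 8) with log2 fold changes of 0.04, -0.03 and 0.11, none called. *Pde11a* gained at all 9 peaks while its RNA stood at -0.38 (SE 0.15), not called. *Mir701*, the nearest gene of 11 peaks with 10 gains, had at most 6.93 normalized counts, and those peaks lie in the introns of *Ttc28*.

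Runs of lost peaks gathered in a different set of genes. *St6galnac5*, *Hdac4*, *Arhgef3*, *Tbc1d22a* and *Mad1l1* each lost 9 to 12 later-intron peaks past 0.5. Of these, *Arhgef3* alone had RNA that was called lower. For *Hdac4* the RNA was lower in every UTX TCD library but under the limit for a call, and for the remaining genes the groups of libraries overlapped.

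*Hdac4* (chromosome 1, 91928779 to 92195702), a class IIa histone deacetylase gene, lost all 11 of its peaks, by -0.57 to -1.96, and 8 of them form a run in intron 2 between 92103369 and 92142821. Counts were 7572, 7583 and 7534 in WT and 5367, 5428 and 5579 in UTX TCD libraries. Every UTX TCD library was lower, with very little spread, and the log2 fold change was -0.47 (SE 0.04, limma adjusted p = 4.18e-05).

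*Arhgef3* (chromosome 14, 27114461 to 27403916), a RhoA exchange factor gene, hosted 11 peaks and lost all of them past 0.5, from -0.55 to -1.40. Counts were 37292, 35347 and 37341 in WT and 22577, 22484 and 24095 in UTX TCD libraries, clearly apart. Its RNA fell, with a log2 fold change of -0.67 (SE 0.05, limma adjusted p = 9.1e-06). A peak assigned to *Arhgef3* by distance but sitting in intron 11 of *Il17rd*, at 27096103 to 27096503, gained by 1.08.

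*St6galnac5* (chromosome 3, 152819885 to 152982210), a sialyltransferase gene, lost 13 of 13 peaks in intron 2, with a mean difference of -1.49. The largest loss, at 152955994 to 152956394, was -3.10. Yet the gene was barely read, at 15.8, 8.89 and 9.91 normalized counts in WT and 11.2, 11.2 and 12.5 in UTX TCD libraries. The groups overlapped, and this wide loss of open chromatin stood at a gene with few reads in both genotypes.

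*Tbc1d22a* lost all 13 of its later-intron peaks (10 past 0.5) with counts that overlapped and a log2 fold change of 0.04 (SE 0.07). *Mad1l1*, a spindle checkpoint gene, lost 10 of 11 with -0.08 (SE 0.06). *Snx29* was mixed, with 12 losses and 4 gains among 16 peaks, from -2.36 to 2.56, and a log2 fold change of 0.01 (SE 0.11). *0610039H22Rik* and *Mir8106*, the nearest genes of 10 and 12 peaks, all lost, are not in the RNA-seq table, and their peaks lie in *Msi2* and *Ano10*. *Msi2* (0.12, SE 0.06) and *Ano10* (-0.22, SE 0.08) were not called.

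*Zfp618*, *Rptor* and *Gtf2i* were taken up after their values were seen, as hosts of many lost peaks. *Zfp618* (chromosome 4, 62965555 to 63139709), a zinc finger gene, lost all 9 of its later-intron peaks with a mean difference of -2.06, but 7 are labeled *Ambp*. *Ambp* had at most 2.25 normalized counts. *Zfp618* itself was counted at 33.7, 25.7 and 36.6 in WT and 4.50, 1.60 and 0 in UTX TCD libraries, without overlap, and was called lower. The UTX TCD values lie under the floor of 3 reads per library, so *Zfp618* was at least 8.45-fold lower. Lost peaks and lower RNA stood together at the host and not at the labeled gene. *Rptor*, the raptor subunit of mTORC1, lost 9 of 9 peaks (mean -1.79), 5 of them labeled *Mir5098*, with a log2 fold change of -0.30 (SE 0.05). *Gtf2i* lost 9 of 9 (mean -1.72) with -0.42 (SE 0.05), and neither was called.

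Changed peaks were often neighbors. With peaks past 0.5 joined when at most 12.5 kb apart, 736 groups of at least 2 held 1841 of the 5174 such peaks (35.6%), and in 669 groups (90.9%) all peaks moved the same way. Of 214 groups with at least 3 peaks, 120 were pure losses, 74 pure gains and 20 mixed, although gains outnumber losses among the peaks. The 32 groups with at least 5 peaks included 28 of 1 direction. Lost examples, chosen after their values were seen, were *Rab3ip* (8 peaks, mean -1.63), *Ano10* (8, -1.06) and *Lix1* (7, -1.11). The *Itpr1* group, by contrast, mixed 2 gains with 6 losses over 34266 bp. Within genes, both directions became common with peak number: among nearest genes with at least 2 peaks past 0.5, 22.3% of 930 had both, and with at least 8, 57.7% of 26.

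Genes with changed later-intron peaks were more often called in the direction of those peaks than all genes tested, and the share was larger for losses than for gains. Genes were split by their peaks past 0.5 into those with gains alone, those with losses alone and those with both. Among 1385 tested genes with gains alone, 221 were called higher, or 16.0% beside 10.5% of all genes tested, and 59 lower (4.26%). Among 685 tested genes with losses alone, 161 were called lower, or 23.5% beside 7.05%, and 32 higher (4.67%). The median log2 fold change was 0.08 with gains and -0.18 with losses, against -0.00 over all genes tested.

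Of the 179 tested genes with peaks in both directions, 25 were called higher (14.0% beside 10.5% of all genes tested). Another 20 were called lower (11.2% beside 7.05%), and the median was 0.01. Among 11634 tested genes with no listed later-intron peak, 10.1% were called higher and 6.26% lower. The share for gains was lower in genes without listed peaks elsewhere: among 623 genes whose only listed peaks are in later introns, a choice made after seeing the data, 64 (10.3%) were called higher, close to all genes tested. For losses the same restriction left 53 of 276 called lower (19.2%). Without genes that have a listed promoter peak the gaining share was 11.6%.

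By nearest gene, more peaks went with more calls. With losses alone, 20.4% of genes with 1 peak past 0.5 were called lower, 23.5% with 2, 36.4% with 3 to 4 and 11 of 27 (40.7%) with 5 or more. With gains alone the shares called higher were 15.2%, 17.0%, 20.2% and 6 of 28 (21.4%). By nearest gene the share for losses was also lower with distance from the start site: 30.8% of genes were called lower when the nearest such peak was under 10 kb away, 21.9% at 10 to 50 kb, 18.9% at 50 to 100 kb and 4 of 25 (16.0%) beyond. For gains the order was 19.2%, 14.4%, 18.8% and 12.4%. Joining by host gene in place of nearest gene gave 16.8% for gains and 25.5% for losses. These orders were not steady by host: with 3 to 4 peaks and with 5 or more, the shares were 37.6% and 34.1% for losses and 22.1% and 18.2% for gains. By distance, host genes with losses alone were called lower in 31.2%, 22.7%, 25.9% and 5 of 20 cases.

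Read from the peaks, 1258 later-intron peaks had a nearest gene that was called, and for 976 (77.6%) peak and RNA moved the same way. Where the host was the nearest gene the share was 81.7% of 901. Where they differed it was 67.6% of 349 for the nearest gene and 70.8% of 544 for the host. By intron number of the host the share was 81.7% in intron 2, 84.6% in intron 3 and 81.3% in intron 4, then 73.9% in introns 5 to 9, 74.0% in introns 10 to 19 and 64.6% of 99 peaks in intron 20 or later. By distance to the nearest gene it was 78.7%, 79.9%, 72.1% and 75.5% across the same bins. The first-intron peaks reached 87.5% of 847 and promoter peaks 91.6% of 692, while intergenic peaks, at 78.1%, were close to later introns. Over 5082 later-intron peaks of tested genes the correlation of peak and RNA differences was r = 0.34, a description across peaks that share genes and libraries.

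The largest single gains and losses sat at genes of very different RNA levels. *Ccdc88a*, *Wwc1* and *Tinagl1* held gains above 4 on the log2 scale, and *Zfp618*, *Fbxw4*, *Slc41a3* and *Ntrk2* losses beyond -4. In this set, picked for the size of the peak, *Ccdc88a* and *Zfp618* also had called RNA in the direction of the peak.

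The top gain, in intron 7 of 28 of *Ccdc88a* (chromosome 11, 29432814 to 29433214), went from 3.00 in WT to 8.52 in UTX TCD cells. *Ccdc88a*, which encodes the actin-binding protein girdin, was counted at 1426, 1579 and 1406 in WT and 2884, 2990.0 and 2294 in UTX TCD libraries, all UTX TCD values higher, and was called higher at 0.88 (SE 0.10). Of the bases of this peak, 95.3% are marked as repeats in the reference, against a median of 11.0% over all later-intron peaks, and it was the only 1 of the 25 largest gains at or above 90%. Next came a peak in intron 20 of *Wwc1* (5.21), labeled *Rars*. *Wwc1* had 20.6 normalized counts at most and *Rars* a log2 fold change of 0.03 (SE 0.04), so neither was called. Gains of 4.84 and 4.11 on chromosome 1 are annotated to *Mir297c*, a microRNA with several genomic copies, and no RefSeq intron of it spans them. *4933406K04Rik* (4.35) had 0 reads in every library, and *Tinagl1* (4.04) had 0.99 normalized counts at most.

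The deepest loss, in intron 2 of *Zfp618* (chromosome 4, 63065676 to 63066076), went from 7.38 in WT to 2.56 in UTX TCD cells. *Fbxw4* intron 2 followed at -4.19 and *Slc41a3* intron 2 at -4.06, with log2 fold changes of -0.10 (SE 0.06) and -0.22 (SE 0.14), not called. In intron 13 of *Ntrk2*, the gene of the neurotrophin receptor TrkB, all 4 peaks lost, by -2.62, -3.20, -4.03 and -3.67. *Ntrk2* had 2, 2 and 1 reads in WT libraries against 4, 4 and 5 in those of UTX TCD mice, too few to be tested.

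Genes with the largest RNA changes beside a later-intron peak past 0.5 were then read, 6 in each direction among called genes whose groups do not overlap. They were picked for those values, so the numbers are descriptions. At each of them the later-intron peaks past 0.5 moved in the direction of the RNA. Fitted folds of genes with few reads depend on the added count of 1.

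*Nrn1*, which encodes neuritin, was the most abundant of those that rose, at 527, 751 and 532 normalized counts in WT and 12126, 12271 and 10341 in UTX TCD libraries (log2 fold change 4.28, SE 0.13). All 5 of its peaks gained, and only the one in its own intron 2 (1.45) lies inside it, with 3 in *Fars2*, 282160 to 303747 bp away, and 1 in *F13a1*. *Gucy1b1*, a subunit of soluble guanylate cyclase, was counted at 104, 462 and 96.1 in WT and 2776, 2763 and 3818 in UTX TCD libraries (4.20, SE 0.51), with a gain of 1.54 in intron 4. WT replicate 2 was the highest of its group. With 1 library left out the log2 fold change ran from 3.81 to 4.93, the latter without WT replicate 2. *Cd80*, a ligand of CD28 and CTLA-4, had 2, 3 and 0 reads in WT libraries against 28, 63 and 86 in those of UTX TCD mice, with gains of 0.91 and 0.54 in introns 2 and 4. In *Kcnc2*, a potassium channel gene, intron 2 gained 2.53 while reads went from 1, 6 and 0 to 19, 90 and 59. *Dmrta1* and *Kirrel* rose by 4.50 (SE 0.53) and 4.19 (SE 0.42), beside gains of 1.13 and 0.73. The peak labeled *Dmrta1* lies in intron 9 of *Gm12610*, 172175 bp upstream of *Dmrta1*. The choice required groups that do not overlap, so in each of the genes that rose, every UTX TCD library was above every WT library by selection.

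*Edaradd* was counted at 292, 309 and 317 in WT and 6.75, 8.81 and 33.2 in UTX TCD libraries, beside a loss of -2.25 in intron 4. *Adh7*, a retinol-oxidizing dehydrogenase gene, fell from 155, 116 and 111 to 2.25, 2.40 and 2.21, with losses of -0.60 and -2.30 in introns 3 and 5. *Scgn*, a calcium sensor gene, was counted at 53.5, 38.5 and 64.8 in WT libraries and had 0 reads in all others, at least 13.8-fold lower against a floor of 3 reads per library. For *Megf10*, with 52.5, 38.5 and 62.5 against 0 reads, the drop was at least 13.5-fold. *Megf10*, a phagocytic receptor gene on chromosome 18, hosted 5 losses, 4 of them nearest to *Prrc1*. *Itgax*, the CD11c integrin chain, was counted at 48.5, 24.7 and 55.7 in WT and 0, 0 and 4.42 in UTX TCD libraries. It lost at 4 peaks, of which 3 lie inside its neighbor *Itgam*. By the same choice, the WT libraries were above the UTX TCD libraries in every one of these genes.

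Among the 16 progenitor transcription factors, 52 of 56 later-intron peaks past 0.5 gained, where 62.5% of all such peaks were gains. *Foxp1*, *Lef1* and *Satb1*, which were also named for having the most gains, supplied 21, 10 and 13 of the gains by nearest gene. *Ets1*, *Bcl11b* and *Zeb1* also had gains alone. *Klf2* and *Gfi1*, factors of quiescence and of lineage repression, had losses alone. RNA of 2 members was called higher (*Bach2* and *Ikzf2*, 12.5% beside 10.5% of all genes tested). Of the 16, 0 were called lower by limma, edgeR or DESeq2, beside 7.05% of all genes tested by limma. At an unadjusted p under 0.05 in limma, 9 were higher and 2 lower. The median log2 fold change was 0.21. *Zeb1* gained at all 6 of its intron 2 peaks, with a log2 fold change of 0.14 (SE 0.05) that was not called.

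The 26 effector and activation factors had 42 gains and 12 losses past 0.5, a median of 0.36, and 8 members (30.8% beside 10.5% of all genes tested) called higher. The 1 called lower (3.85% beside 7.05%), *Fosl2*, has gains alone. *Runx2*, a factor of effector and memory cells, was split along its length: 4 peaks in its last intron, 154431 to 178753 bp from the start, gained by 0.55 to 1.69, and the 4 closer ones lost by -0.41 to -1.90. Counts were 911, 1002 and 920.5 in WT and 1869, 1997 and 2963 in UTX TCD libraries, all higher, a rise of 1.24 (SE 0.15, limma adjusted p = 0.000289). *Maf* rose from 297, 369 and 288 to 2094, 2019 and 2346 normalized counts, or 2.76 (SE 0.12, limma adjusted p = 5.07e-07), with 6 gains and 2 losses in *Wwox*.

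T cell receptor signaling genes had more losses than gains. The list of 32 had 13 gains and 19 losses past 0.5, with gains alone at *Fyn*, *Rasgrp1*, *Dock2* and *Elmo1* and losses alone at *Zap70*, *Plcg1*, *Prkcq*, *Malt1*, *Themis*, *Cblb*, *Cbl* and *Cd5*. Called genes were *Dock2* and *Ubash3b*, lower (6.25% beside 7.05% of all genes tested). Of the 32, 0 were called higher by limma, edgeR or DESeq2, beside 10.5% of all genes tested by limma. At an unadjusted p under 0.05 in limma, 3 were higher and 16 lower (median -0.14). *Dock2*, which has gains alone, thus ran against its peaks. *Themis*, needed in thymic selection, had 4 losses of -0.50 to -1.40, all in introns of *Ptprk* upstream. *Themis* counts were 59757, 56685 and 59798 in WT and 48006, 48656 and 46044 in UTX TCD libraries, a log2 fold change of -0.30 (SE 0.04), and *Ptprk* itself was called lower at -1.22 (SE 0.22). *Cblb*, a ubiquitin ligase that restrains the receptor, lost at 7 of 9 peaks with a log2 fold change of -0.03 (SE 0.09) that turned positive in some settings. *Lcp2* (-0.18, SE 0.06) and *Sla* (-0.04, SE 0.08) had peaks in both directions and were not called.

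Integrins and adhesion genes had 8 gains and 10 losses past 0.5, and 8 of 19 tested members (42.1% beside 7.05% of all genes tested) were called lower and 1 (5.26% beside 10.5%), *Itgb3*, higher (median -0.40). Called members whose peaks past 0.5 ran against their RNA were *Itgb3*, with losses alone, and *Itga2* and *Itga6*, with gains alone. *Cd9*, a tetraspanin, fell from 1601, 2115 and 1701 to 144, 164 and 155 normalized counts, and both of its peaks in intron 2 lost, by -0.95 and -1.56. For *Itga6*, an α chain of laminin receptors, the 2 peaks assigned to it gained, by 0.65 and 0.80, while the RNA was called lower at -0.63 (SE 0.06, limma adjusted p = 6.19e-05). Both lie upstream of *Itga6*, and the 1 peak inside it, in intron 20, lost by -0.96.

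Cytokine and TGF-β receptors had 9 gains and 9 losses, where 62.5% of all later-intron peaks past 0.5 were gains. Of 22 members, 2 (9.09% beside 10.5% of all genes tested) were called higher and 5 (22.7% beside 7.05%) lower (median -0.21). *Il6ra* lost at both peaks, by -0.65 and -1.99, and its counts of 32741, 26639 and 33094 in WT and 19057, 19011 and 19526 in UTX TCD libraries were apart. It fell by 0.68 on the log2 scale (SE 0.08, limma adjusted p = 0.000172). *Il6st*, the shared gp130 subunit of the same receptor, gained at both peaks, by 0.88 and 1.14, beside a log2 fold change of -0.19 (SE 0.06), not called. *Tgfbr2* gained at 6 of 6 peaks labeled with it, by 0.49 to 1.64, of which 5 lie inside it and 1 in *Gadl1*. *Tgfbr3* lost at 3 of 3, by -0.56 to -1.49. The log2 fold changes of *Tgfbr2* and *Tgfbr3*, 0.18 (SE 0.05) and -0.27 (SE 0.04), had the sign of the peaks and were not called.

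For costimulatory and inhibitory receptors, limma called 7 of 20 lower (35.0% beside 7.05% of all genes tested), as did DESeq2, and edgeR 6. All 3 tests called 0 of the 20 higher, beside 10.5% of all genes tested called higher by limma. At an unadjusted p under 0.05 in limma, 4 were higher and 9 lower (median -0.35). Peaks past 0.5 were 8 gains, all labeled *Cd226* although 5 lie in *Dok6*, and 5 losses. *Cd200*, *Cd96* and *Cd101* had losses alone, but both *Cd101* peaks past 0.5 (-0.81 and -0.50) lie in *Ptgfrn*, and the 2 inside *Cd101* stand at -0.28 and -0.41. *Cd101* counts were 579, 448 and 535 in WT and 236, 199 and 207 in UTX TCD libraries, a fall of -1.27 (SE 0.14, limma adjusted p = 0.000135). *Cd200* went from 1696, 2089 and 1637 to 675, 651 and 1142, or -1.18 (SE 0.20), with its peak in intron 5 at -1.54. *Cd96* lost its intron 3 peak by -1.48, and its log2 fold change of -0.48 (SE 0.07) passed the limit only without WT replicate 2 (-0.54), UTX TCD replicate 1 (-0.51) or UTX TCD replicate 2 (-0.51), and was -0.42 without UTX TCD replicate 3.

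Cytotoxic and effector molecules had 1 later-intron peak past 0.5 in 24 genes, while 6 of 22 tested (27.3% beside 7.05% of all genes tested) were called lower and 2 (9.09% beside 10.5%) higher (median -0.33). That peak, labeled *Gzma*, lies in intron 11 of *Cdc20b* and gained by 0.91, whereas *Gzma* fell from 235, 195 and 211 to 103, 90.5 and 113 normalized counts. The other members called had no later-intron peak past 0.5 under their own name.

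In the UTX complex and H3K27 machinery, 0 of 15 tested members were called by limma, edgeR or DESeq2, beside 17.6% of all genes tested called by limma, with 7 higher and 1 lower at an unadjusted p under 0.05 (median 0.12). *Kmt2c*, a methyltransferase partner of UTX, gained at 1 peak (0.77) in intron 7, with a log2 fold change of 0.36 (SE 0.05). *Jarid2* gained at 3 of 4 peaks with -0.07 (SE 0.06). *Kdm6a* lost at its 4 peaks in intron 2, from 18179533 to 18192393 on chromosome X, by -0.42 to -0.82. Its log2 fold change of -0.23 (SE 0.04) was not called, and which exons the reads cover was not analysed here. Of the sort markers, *Entpd1* had 1 later-intron peak (-0.28), *Slamf6*, *Cxcr6* and *Cd44* had none under their own name, and *Cxcr6* alone was called, lower at -1.07 (SE 0.12).

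Wnt and TCF1 partners included peaks and RNA that moved in opposite directions. *Axin2*, a feedback inhibitor and classic Wnt target, gained 1.03 in intron 2, yet its RNA fell from 9320.5, 8450.0 and 9598 to 5426, 5510.0 and 5179 normalized counts (-0.76, SE 0.06, limma adjusted p = 1.66e-05). *Lrp5*, a Wnt co-receptor gene, lost -0.88 in its own intron 2 and rose from 1218, 1328 and 1280.5 to 1948, 1916 and 1871 (0.58, SE 0.07, limma adjusted p = 0.000166). Gained peaks in introns 7 and 21 of *Lrp5* are labeled *Ppp6r3*. Over the list, 2 of 19 (10.5%, the same as over all genes tested) were called higher and 3 (15.8% beside 7.05%) lower, with 4 gains and 2 losses past 0.5 and a median of -0.04. The 3 peaks labeled *Tcf7l1* gained, but inside the gene there were 4 gains and 3 losses (0.18, SE 0.13, not called). *Tle4*, a co-repressor, had 2 gains and 1 loss by label and 3 gains and 4 losses inside it, and all 3 past 0.5 were losses (-0.19, SE 0.05, not called).

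Survival and death genes had 4 gains and 9 losses past 0.5, with 2 of 14 called higher (*Bbc3* and *Bcl2*, 14.3% beside 10.5% of all genes tested). Of the 14, 0 were called lower by limma, edgeR or DESeq2, beside 7.05% of all genes tested by limma. At an unadjusted p under 0.05 in limma, 5 were higher and 4 lower (median 0.02). *Bcl2l11*, which encodes the killer protein BIM, was nearest to 10 peaks. Those 6 that lie upstream in *Acoxl* all lost, by -0.64 to -2.29, and *Acoxl* itself was called lower at -2.43 (SE 0.26), while 3 of 4 inside *Bcl2l11* gained. *Bcl2l11* counts were 13309.6, 20349 and 13858 in WT and 11854, 12779 and 10544 in UTX TCD libraries, apart but uneven, with -0.41 (SE 0.15, limma adjusted p = 0.0496). WT replicate 2 was high, and without it the log2 fold change was -0.22, while without WT replicate 1 it was -0.52 and called. *Bbc3*, the gene of PUMA, rose from 763, 1255 and 759.6 to 2481, 2486 and 2203 beside a loss of -1.22 and a gain of 0.39 in *Sae1*. *Cflar* gained at both peaks (0.59 and 1.31) with -0.02 (SE 0.06), and *Bcl2l1* was mixed with 0.32 (SE 0.07).

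Sequence separated gained from lost later-intron peaks in part. Short letters of KLF and RUNX factors were more frequent in losses, and those of T-box, IRF and CTCF factors in gains. Searches covered 11 words on both strands of each 401 bp peak of GRCm38 from RefSeq, which is the C57BL/6J reference and not NOD. A match describes letters and shows no binding, and words can overlap.

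KLF letters (GGGTGTGG) occurred in 8.67% of losses past 0.5, 4.08% of gains and 5.50% of all listed peaks. Of the 392 later-intron peaks with them, 46.7% gained, against 65.6% of those without. RUNX letters (TGTGGT) were in 51.4% of losses, 43.4% of gains and 39.7% of all listed peaks. E-box letters (CAGCTG) followed, at 27.3%, 22.7% and 24.3%. On the gaining side, T-box letters (AGGTGTGA) were in 3.74% of gains, 2.12% of losses and 2.48% of all listed peaks, and 74.4% of the 203 peaks with them gained. IRF letters (GAAANNGAA) were in 16.2%, 12.9% and 13.6%, and CTCF letters (AGGGGGCG) in 2.94%, 1.08% and 4.42%. In the order gains, losses and all listed peaks, little separated the directions for TCF/LEF (CTTTGA, 34.6%, 34.6% and 30.6%), AP-1 (TGANTCA, 13.1%, 14.9% and 12.8%), STAT (TTCNNNGAA, 11.7%, 11.4% and 11.9%), ETS (GGAAGT, 36.3%, 37.6% and 34.8%) and NFAT (GGAAAA, 27.6%, 25.3% and 26.5%). Median GC content was 47.4% in gains and 48.6% in losses.

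The first-intron peaks showed the same lean for KLF letters (9.95% of losses and 4.45% of gains) and RUNX letters (50.5% and 38.4%), but not for T-box letters (2.90% and 2.70%). IRF letters (15.5% of gains and 11.0% of losses) and CTCF letters (3.27% and 1.04%) also leaned there as in later introns, as did E-box letters (23.0% and 27.7%). AP-1 letters, in 12.6% of gains and 17.1% of losses, were further apart in first introns than in later ones. Over an absolute difference of 1, KLF letters in later introns reached 10.1% of losses and 3.28% of gains.

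The middle 300 bases of 3 peaks that carry the results are shown on the plus strand, 5′ to 3′, with matches to any of the 11 words on either strand in capitals. They are the largest loss and the strongest peaks of the *Foxp1* and *St6galnac5* runs.
Zfp618 intron 2 (chr4:63065726-63066025): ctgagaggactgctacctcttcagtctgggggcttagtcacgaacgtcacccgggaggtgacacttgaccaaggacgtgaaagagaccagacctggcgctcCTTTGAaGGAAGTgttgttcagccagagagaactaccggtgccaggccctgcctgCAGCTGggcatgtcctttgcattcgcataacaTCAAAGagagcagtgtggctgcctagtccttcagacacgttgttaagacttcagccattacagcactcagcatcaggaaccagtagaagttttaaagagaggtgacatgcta
Foxp1 intron 2 (chr6:99191898-99192197): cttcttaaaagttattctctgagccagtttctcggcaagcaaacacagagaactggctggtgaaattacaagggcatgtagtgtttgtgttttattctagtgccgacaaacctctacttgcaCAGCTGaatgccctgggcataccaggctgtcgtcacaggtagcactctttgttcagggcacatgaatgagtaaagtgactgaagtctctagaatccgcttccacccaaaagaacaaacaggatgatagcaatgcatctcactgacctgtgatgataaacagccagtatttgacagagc
St6galnac5 intron 2 (chr3:152956044-152956343): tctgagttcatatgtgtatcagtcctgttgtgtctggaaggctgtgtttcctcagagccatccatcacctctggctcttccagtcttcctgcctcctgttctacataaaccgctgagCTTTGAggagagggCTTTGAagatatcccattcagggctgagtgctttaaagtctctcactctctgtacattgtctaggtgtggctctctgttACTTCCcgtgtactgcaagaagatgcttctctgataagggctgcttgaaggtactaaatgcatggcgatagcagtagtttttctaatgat
The *Zfp618* window holds 2 TCF/LEF words, 1 ETS word and 1 E-box. A lone E-box stands in the *Foxp1* window, and 2 TCF/LEF words with 1 ETS word in the *St6galnac5* window.

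A further 4 peaks of named genes show the words that leaned to a direction, each the largest change with that word: T-box and IRF letters in gains, KLF and RUNX letters in losses. Strand and capitals are as above.
Il6st intron 2 (chr13:112474401-112474700): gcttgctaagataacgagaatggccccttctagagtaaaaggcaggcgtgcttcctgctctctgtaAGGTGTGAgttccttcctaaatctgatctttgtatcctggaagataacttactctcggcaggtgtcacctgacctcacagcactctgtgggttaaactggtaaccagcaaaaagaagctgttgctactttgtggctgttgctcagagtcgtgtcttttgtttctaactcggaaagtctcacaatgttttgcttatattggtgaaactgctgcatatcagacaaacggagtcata
Snx29 intron 6 (chr16:11399993-11400292): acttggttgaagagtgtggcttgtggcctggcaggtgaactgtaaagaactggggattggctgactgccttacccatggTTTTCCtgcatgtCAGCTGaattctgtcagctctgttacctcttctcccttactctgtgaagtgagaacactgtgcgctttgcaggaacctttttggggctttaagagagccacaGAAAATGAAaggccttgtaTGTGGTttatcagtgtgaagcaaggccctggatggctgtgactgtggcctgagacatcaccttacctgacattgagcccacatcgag
Edaradd intron 4 (chr13:12499138-12499437): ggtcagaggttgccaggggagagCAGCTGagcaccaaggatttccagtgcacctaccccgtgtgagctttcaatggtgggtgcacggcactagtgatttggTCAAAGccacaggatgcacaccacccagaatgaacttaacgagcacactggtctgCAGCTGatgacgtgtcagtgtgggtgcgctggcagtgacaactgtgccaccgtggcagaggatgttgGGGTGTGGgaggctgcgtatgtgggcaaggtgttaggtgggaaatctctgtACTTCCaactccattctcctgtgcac
Fbxw4 intron 2 (chr19:45638927-45639226): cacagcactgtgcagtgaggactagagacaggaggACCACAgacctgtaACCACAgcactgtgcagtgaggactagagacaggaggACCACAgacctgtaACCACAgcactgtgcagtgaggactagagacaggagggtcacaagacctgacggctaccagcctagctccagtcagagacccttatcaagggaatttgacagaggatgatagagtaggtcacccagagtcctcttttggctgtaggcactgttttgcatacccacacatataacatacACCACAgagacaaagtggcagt
*Il6st* has the T-box word alone, at a peak that gained 1.14. *Snx29* carries the IRF word with 1 RUNX, 1 NFAT and 1 E-box word at a gain of 2.56. In *Edaradd*, which lost -2.25, the KLF word stands with 2 E-boxes, 1 TCF/LEF word and 1 ETS word. *Fbxw4*, which lost -4.19, holds 5 RUNX words, several of them in a repeated stretch of the window.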

How the data were processed

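RNA-seq and ATAC-seq of sorted CD8+ progenitor T cells were used, with 3 libraries per genotype, and sample labels gave the genotypes. For RNA-seq the authors aligned reads to mm10 with HISAT2 2.2.1 (version from the submitters' processing notes), counted them with featureCounts and scaled libraries by size factors of DESeq2, so the deposited signal is a normalized count. For ATAC-seq the authors used Cutadapt, Bowtie2, Picard, MACS2, DiffBind and HOMER, and their deposited values are concentrations per peak, the log2 of normalized reads averaged over the libraries of a genotype. Annotation, strand and any shift for the transposase are not stated. The authors' tables also hold a fold, p-value and FDR per peak and a log2 fold change, its error and an adjusted p per gene, and these columns were not used here, and 0 other per-sample columns were left. ATAC-seq values per library were not used here.

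Peaks were selected by annotation. The nearest gene is the authors' label, and the host gene is that of the annotated RefSeq transcript, accepted only where the peak's center lies in an intron of it in GRCm38.p6. Of the peaks, 11 had no gene name, 14 had names that a spreadsheet had turned into dates, 54 had no host, and 42 lay in no curated intron. Nearest genes were found in the RNA-seq table for 6348 peaks (92.8%), 56 of them through synonyms, and hosts for 6678 (97.7%).

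The limma fit (version 3.58.1, R 4.3.3, trend) took genes whose normalized counts averaged 10 or more, with Benjamini-Hochberg adjustment. Whole reads were recovered for 100% of values within 0.01 and given to edgeR 4.0.16 (1529 higher and 1012 lower) and to DESeq2 1.42.0 (1462 higher and 960 lower). The limma test was tested on simulated data. Alternatives covered the pseudocount, the filter, the scaling, the test, the replicate block, each library left out, the fold limit, the peak limits, the intron limit, the join and the distance. Chosen after seeing the data were introns checked in RefSeq and genes with no listed peak outside later introns.

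Named genes were the 8 with the most gained and the 8 with the most lost peaks past 0.5, those of the 6 largest gains and 6 largest losses, the 6 largest RNA increases and 6 largest decreases among called genes with such a peak and no overlap of groups, *Kdm6a* and the sort markers, and up to 4 members with the most such peaks from each of 10 lists: progenitor factors, effector factors, T cell receptor signaling, adhesion, cytokine receptors, costimulatory and inhibitory receptors, cytotoxic molecules, UTX complex, Wnt partners, and survival and death. Members and lists were chosen with earlier results of these data known. Some named genes and 1 sequence are not reported here. Depth ran from 61512402 to 193568919 reads per library. Reads carry no molecular identifiers, so limits from 3 reads cover counting error only.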

Additional observations from a re-analysis of the deposited data

How the results depend on the processing

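Peak shares describe a list that the authors had already selected and carry no replicate spread. The share of later-intron peaks that gained was 64.5%, and it moved to 62.5% over an absolute difference of 0.5, to 57.1% over 1 and to 48.0% when centered on the median of all listed peaks. Genes called numbered 2538, and 5887 with no limit on the fold change. The split of 1518 higher to 1020 lower became 2924 higher to 2963 lower without that limit, so higher calls no longer outnumbered lower ones. Genes with gains alone called higher moved from 16.0% to 22.1% with peaks past 1, to 11.6% without genes that have a listed promoter peak and to 10.3% with no listed peak outside later introns, where genes with losses alone called lower moved from 23.5% to 19.2%. That last setting was chosen after seeing the data, and the cause was not tested. With each library left out in turn, calls ran from 2164 to 2570, the gaining share from 14.4% to 16.1% and the losing share from 21.3% to 23.2%.

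With the replicate block there were 2474 calls, and the shares were 16.0% and 22.6%. Deviations of same-numbered libraries correlated at 0.31, -0.20 and 0.09, and those of other pairs at -0.32 to 0.29.

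Of 682 log2 fold changes of 62 named genes in other settings, 663 kept their direction and side of the limits, 6 passed the limits newly and 13 changed sign, all in genes that were not called. With libraries scaled to the same sum, *Cblb* was 0.037, *Sla* 0.023 and *Cflar* 0.039, beside a shift of the median gene of 0.06, and calls split 1727 higher to 853 lower. Without 1 library, *St6galnac5* ran from -0.10 to 0.28, *Tbc1d22a* from -0.020 to 0.086, *Snx29* from -0.081 to 0.089, *Cblb* from -0.13 to 0.035, *Sla* from -0.13 to 0.022 and *Cflar* from -0.081 to 0.018. The cause was not tested. Depth limits *Ntrk2*, *Scgn*, *Megf10* and other genes with few reads.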
